A study of Mus musculus with 3 samples.

Results

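The genes described here encode the proteins of the cytosolic ribosome, followed in 3 mouse B cell lymphomas. They were taken by name: protein-coding genes called Rpl or Rps with a number, Rplp with a number, or Rpsa, without the Rps6k kinases and without names that contain -ps. The rule found 87 of the 37646 genes in the tables, and it used no measured value. By background knowledge, 77 of the 87 are core ribosomal proteins, 46 of the large subunit and 31 of the small subunit. The other 10 are paralogs (Rpl3l, Rpl7l1, Rpl10l, Rpl22l1, Rpl36al, Rpl39l, Rps27l, Rps27rt), a retrogene relative of Rps23 (Rps23rg1) and Rps19bp1, which encodes a protein that binds Rps19 and is not itself a ribosomal protein. Fau and Rack1, whose products are also part of the small subunit, fall outside the naming rule and are given beside the members.

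All 3 libraries form 1 group, named here tumours 1, 2 and 3. The cells carried p53F/F, Blimp1F/F and IKK2castop stopF/stopF alleles, Cg1Cre/+ and the transgene Eµ-hBCL2tg/+, on the C57BL/6 strain, a combination called pBIC2. Cre in this line is expressed from the immunoglobulin Cγ1 locus, so the floxed alleles recombine in B cells that transcribe it, and the Eµ enhancer drives human BCL2 in lymphoid cells. Spleens came from moribund mice, and B220+GFP+ cells were sorted after dead cells had been gated out with 7AAD. Normal germinal centre B cells, to which the study set these lymphomas, were not analysed here, and the ages of the mice and whether each library came from its own mouse are not given in the labels. With 1 group no contrast between conditions exists, so no p-value is given, and the SD of 3 libraries is the only error.

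Each cytosolic ribosome holds 1 copy of nearly every core protein. The stalk proteins Rplp1 and Rplp2 are the known exception and are held as dimers on Rplp0. The messages of these genes mostly begin with a C followed by a run of pyrimidines, the 5′ terminal oligopyrimidine (TOP) motif, through which mTOR signalling and Larp1 control their translation. Their short, highly transcribed messages have left many processed pseudogenes in mammalian genomes, so that stretches of a ribosomal protein message often occur again elsewhere. B cells raise ribosome production when they enter the cell cycle, and Myc is a known driver of it.

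Levels are in CPM, counts scaled to the size of the library. The libraries held 15576975, 16477997 and 17014022 gene counts in tumours 1, 2 and 3, at which 3 counts correspond to 0.199, 0.184 and 0.169 CPM (TMM factors 0.969, 0.990 and 1.04). In each library all 10 B cell markers examined (Pax5 and Cd22 among them) reached at least 10 CPM. Their levels were not even, as 5 of the 10 differed by more than 2-fold between tumours. Of the 10, 1 was highest in tumour 1, 5 in tumour 2 and 4 in tumour 3. The summed CPM of 10 T cell markers was 115, 277 and 1372, with 9 of them highest in tumour 3, and none was at 0 in all libraries. Counting intervals below cover counting error only.

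Ribosomal protein genes held a small share of the counts in these libraries. How reads that map to several places were counted is not given, so the share of counts may differ from the share of message. The 87 members took 2.48%, 2.04% and 1.84% of all gene counts, with 95% Wilson intervals of 2.47 to 2.49%, 2.03 to 2.04% and 1.84 to 1.85% and a mean of 2.12% ± 0.328 (SD, n = 3). Tumour 1 had the highest share and tumour 3 the lowest, and the counting intervals did not meet. Genes of the mitochondrial genome ran in the same order, at 6.10%, 5.09% and 4.21% of counts. The 78 nuclear genes of the mitochondrial ribosome held 0.339%, 0.403% and 0.331%.

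Of the 87 members, 83 had a mean of at least 1 CPM, among them all 77 core genes. Rpl10l, Rpl39l and Rps23rg1 had no count in any library, and Rps27rt had 5, 2 and 0 counts. In every tumour 69 members were at or above 10 CPM, 35 at or above 100 CPM and 5 at or above 1000 CPM. Over the 83 members the median level was 96.0, 86.5 and 81.5 CPM, against 29.1, 28.3 and 29.4 CPM over the 12445 genes with a mean of at least 1 CPM.

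Levels differed widely within this family. Rpl4, a large subunit protein that reaches into the tunnel through which the new peptide leaves, was the most abundant at 3000, 2530 and 2541 CPM. Rpl8, which lies near the catalytic centre of the large subunit, followed at 1933, 2055 and 1398 CPM. Rps3, at the entry of the mRNA channel, reached 1954, 1359 and 1308 CPM. These 3 genes, Rplp0, Rps26, Rps15 and Rps9 were all among the 100 most abundant genes of the libraries. The 10 most abundant members of each library held 63.8%, 62.2% and 60.9% of all counts that fell on members.

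At the other end stood core proteins of the same particle. Rpl24, which forms part of a bridge between the subunits, had 32, 16 and 27 counts, or 2.12, 0.981 and 1.52 CPM; in tumour 2 the exact 95% Poisson interval was 0.561 to 1.59 CPM. Rpl23a, at the mouth of the exit tunnel, had 40, 64 and 59 counts, and Rps29 had 83, 66 and 76. Rps6, the small subunit protein that S6 kinase phosphorylates downstream of mTOR, had 64, 167 and 84 counts, or 4.24, 10.2 and 4.73 CPM. All 4 lay below the median of the genes with a mean of at least 1 CPM, although each protein is needed in every ribosome. Of the 77 core genes, 12 were below 10 CPM in at least 1 tumour.

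Per kb of exon the spread was of the same order. Rps15 had the highest mean, at 2274, 1522 and 1073 CPM per kb, although Rplp1 was above it in tumour 3 at 1413 CPM per kb, and Rpl24 lowest at 2.06, 0.952 and 1.48 CPM per kb. The range from the 10th to the 90th percentile of core genes spanned 6.34 ± 0.17 log2 units of CPM per kb (SD, n = 3). Between the subunits the median level per kb of exon did not differ beyond the spread of tumours, with large minus small at 0.03 ± 0.09 log2 units (SD, n = 3). Other lengths and filters gave differences beyond their spread in both directions, at -0.35 ± 0.17 per kb of coding sequence, -0.95 ± 0.32 per 50-base window found in no other annotated gene and 0.59 ± 0.21 among core genes with at least 90% of coding windows unique in this sense.

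The sequences of these messages differ in how often they occur again in the annotated transcriptome. Every 50-base window of each coding sequence, the length of the reads, was looked up on both strands in the GENCODE M21 transcripts of all other genes, except genes that overlap it on the chromosome. The first 60 coding bases are printed for a gene listed low and a gene listed high, each with the gene that shares most of its windows, and capitals mark the bases of the copy that differ. Rps6 (chr4:86854660-86857412, minus strand, mm10) is shown with the pseudogene Rps6-ps4 (chr2:75191073-75191822). Rpl4 (chr9:64173375-64178666, plus strand) is shown with the pseudogene Gm5835 (chr1:143093347-143094616).

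Rps6: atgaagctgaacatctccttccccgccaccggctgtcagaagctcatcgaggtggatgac
Rps6-ps4: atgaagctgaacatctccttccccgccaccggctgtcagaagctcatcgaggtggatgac
Rpl4: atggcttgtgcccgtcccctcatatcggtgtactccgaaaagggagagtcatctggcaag
Gm5835: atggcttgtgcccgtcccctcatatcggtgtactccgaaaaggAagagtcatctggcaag

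The Rps6 copy differed at 0 of these 60 bases and the Rpl4 copy at 1. Over the whole coding sequence the genes parted further. For Rps6, 0 of 698 windows were found in no other gene, whereas 963 of 1208 windows of Rpl4 (79.7%) were unique. Over the whole transcript, 14 pseudogenes shared at least 1 window with Rps6, and Gm5835 was the only gene to share any with Rpl4.

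Across the 77 core genes the measured level was higher where more of the coding windows were unique. The 28 core genes with no unique coding window had a median of 24.6 CPM (range of gene means 1.54 for Rpl24 to 81.1 for Rps16) and held 3.74% of all core counts. The 28 genes above 0% and below 20% unique had a median of 133 CPM (7.82 for Rps10 to 346 for Rps2) and held 17.5%. The 9 genes from 20% to below 50% had a median of 416 CPM (129 for Rpl26 to 1430 for Rplp0) and held 24.6%. The 12 genes at 50% or more had a median of 713 CPM (88.3 for Rpl13a to 2690 for Rpl4) and held 54.2%. Rpl13a, the lowest of this class, also had 353 windows of its transcript in an overlapping gene. No gene of the class without unique coding windows had a mean above that of the lowest gene of the class at 50% or more, though in tumour 3 alone Rps16 (68.3 CPM) was above Rpl13a (62.5 CPM). The Spearman correlation of mean CPM with the share of unique windows was 0.85 over these 77 genes, which share libraries and differ in length. The correlation with the number of genes sharing a window anywhere in the transcript, coding or not, was -0.40.

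**Figure D1:**
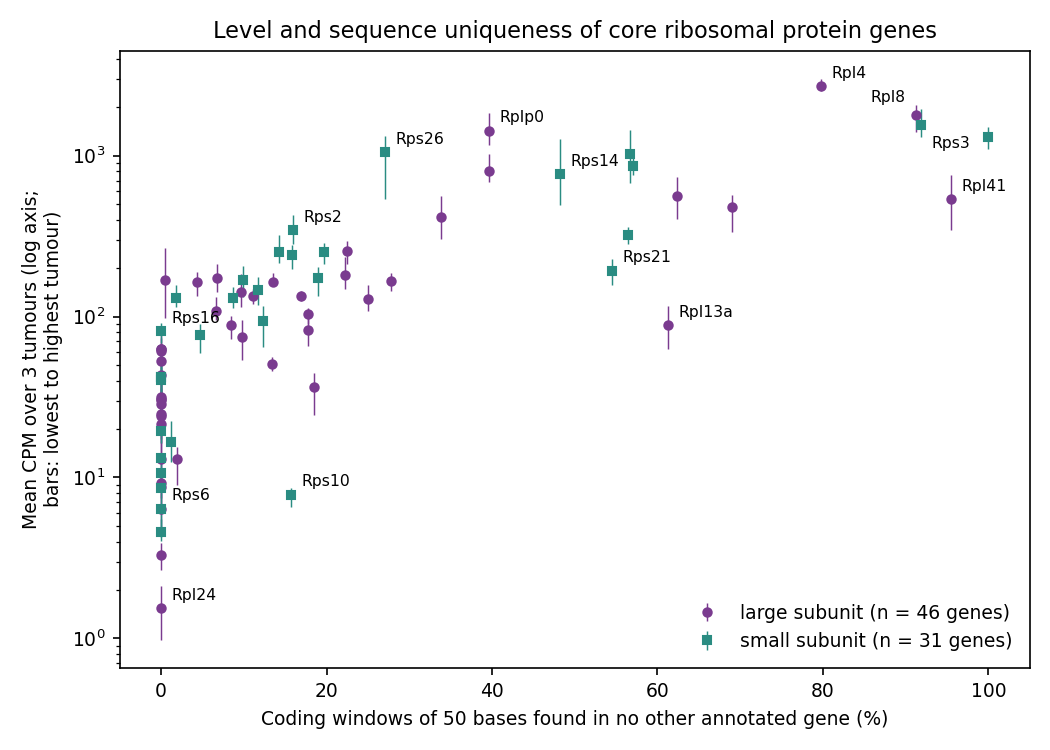
Mean CPM over the 3 tumours (vertical, log axis) against the share of 50-base coding windows found in no other annotated gene (horizontal, %), for 46 large subunit (circles) and 31 small subunit genes (squares); bars run from the lowest to the highest tumour. Genes with no unique window lie between 1.54 and 81.1 CPM, and the 12 genes at 50% or more lie at 88.3 CPM or higher.

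The genes outside the naming rule followed the same order. Rack1, a signalling scaffold on the small subunit with 98.6% of coding windows unique, was at 1790, 2270 and 2612 CPM. Fau, which encodes a small subunit protein fused to a ubiquitin-like protein, had no unique coding window, and it had 281, 241 and 235 counts. Few counts were assigned to pseudogenes themselves: the 1048 pseudogene rows that share a window with a member held 6070, 5088 and 5015 counts in all, and 158 of them had none. These are assigned counts and do not show how many reads matched a pseudogene. How the counting treated reads that map to several places is not given in the sources used here, and its part in these levels was not tested. Levels of members with few unique windows therefore cannot be compared with one another as amounts of message; the comparisons between tumours below are of the same gene each time.

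Paralogs were measured next to their parents, as the log2 ratio of CPM per kb of exon. Rpl22l1, a paralog of Rpl22 that can replace it in the ribosome, was at 12.1, 14.7 and 21.8 CPM against 545, 567 and 333 CPM for Rpl22, a log2 ratio of -4.95, -4.73 and -3.39. Rpl22l1 was thus highest and Rpl22 lowest in tumour 3. The share of unique windows differed between them, at 20.1% for Rpl22l1 and 69.0% for Rpl22, so the ratio does not compare amounts of message. Rpl7l1, known for its place in large subunit assembly, was at 113, 230 and 85.0 CPM, with a mean log2 ratio to Rpl7 of -1.35 ± 0.94 (SD, n = 3). This pair has the same limit, with 78.1% of windows unique for Rpl7l1 and 22.5% for Rpl7. Rpl36al lay close to Rpl36a at -0.39, 0.09 and 0.27, and Rpl36a had no unique coding window.

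Rps27 and its relatives range from an identical to a diverged sequence, so their first 60 coding bases are printed, with capitals at the bases that differ from Rps27. Rps27 lies at chr3:90212522-90213651, Rps27rt at chr9:114982366-114982739 and Rps27l at chr9:66946086-66949516 (mm10).

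Rps27: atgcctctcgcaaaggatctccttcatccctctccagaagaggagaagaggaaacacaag
Rps27rt: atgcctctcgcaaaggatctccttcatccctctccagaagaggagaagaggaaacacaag
Rps27l: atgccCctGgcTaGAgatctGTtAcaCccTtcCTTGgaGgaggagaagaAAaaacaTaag

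Rps27rt was identical to Rps27 over the whole coding sequence of 252 bases, and Rps27l at 76.2% of them. Rps27l, a p53 target whose product is nearly the same protein as Rps27, had 51.7% of windows unique and was at 25.5, 17.1 and 16.3 CPM. Rps27 had no unique coding window and was at 8.09, 8.46 and 9.36 CPM. The log2 ratio per kb of exon was 2.01, 1.37 and 1.16, but with the parent's windows nearly all shared it does not compare amounts of message. Over the 4 pairs with a ratio in every tumour the median was -0.68 per kb of exon and -3.75 per unique window. Rpl3l, the form of Rpl3 known from heart and skeletal muscle, had 45, 2 and 1 counts, all windows being unique. Nearly all of its counts came from tumour 1.

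TOP motifs were looked for in the first 20 bases of 1 transcript per gene, as a C within the first 10 bases followed by at least 4 C or T. Annotated starts are imprecise to several bases, so the search allows an offset and a miss says only that these letters are not in this window. Of the 77 core genes, 27 (35.1%) had such a start and 10 (13.0%) had it at the first base. The same search found it in 16 of 78 mitochondrial ribosomal protein genes (20.5%; 5.13% at the first base) and in 16.3% of 21866 protein-coding genes (2.38% at the first base). Examples from abundant members and Rack1 are printed from GENCODE M21 with the pyrimidine run in capitals.

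Rpl4: CTTTTCCTgtgggagcagcc
Rpl32: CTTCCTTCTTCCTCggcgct
Rpl37: CTCTTCCggtctctttggcc
Rps24: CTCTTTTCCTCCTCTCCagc
Rpl8: ctatttCCTCTTTCggcctt
Rps15: gtaCTTCCTTTTCCgagtaa
Rplp1: gatCTTTTCCTCagctgccg
Rack1: CTTTTTCTCCacagggtcgt

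The run opens the annotated message of Rpl4, Rpl32, Rpl37, Rps24 and Rack1, and starts some bases in for Rpl8, Rps15 and Rplp1. Core genes with such a start had median shifts, as defined next, of 0.22, -0.03 and -0.19 in tumours 1, 2 and 3 (27 genes), and those without it 0.25, 0.02 and -0.20 (50 genes). Promoter windows from RefSeq covered 67 of the 87 members (77.0%), below the 80% set for such a check, so a promoter motif check is void.

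Between tumours, most ribosomal protein genes were highest in tumour 1, and a separate count found most lowest in tumour 3, by a small amount. The genes in these counts overlap only in part: Rpl4 was lowest in tumour 2, and Rpl8 was highest there. The shift of a gene in a tumour is its log2 CPM there minus its mean over the 3 tumours, with a prior count of 2 added to damp low counts. The median shift of the 83 members was 0.24 in tumour 1, -0.02 in tumour 2 and -0.21 in tumour 3, beside -0.02, 0.01 and 0.02 over all 12445 genes. Of the members, 53 were highest in tumour 1, 19 in tumour 2 and 11 in tumour 3, where the background shares of all genes are 33.6%, 31.1% and 35.3%. In tumour 3, 46 members were lowest, with 14 lowest in tumour 1 and 23 in tumour 2, against 33%, 38.1% and 28.9% of all genes. In a bulk sample, fewer cells of a type and less RNA per cell cannot be told apart. Leaving out 1 tumour kept the sign for tumours 1 and 3, but the median shift of tumour 2 became 0.10 without tumour 1 and -0.11 without tumour 3.

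The pattern did not rest on 1 kind of member. The 12 core genes with at least 50% unique windows had median shifts of 0.27, 0.00 and -0.22, with 9 highest in tumour 1 and 8 lowest in tumour 3. The 28 core genes with no unique coding window had median shifts of 0.22, 0.07 and -0.22. The large and the small subunit gave 0.23, -0.06 and -0.18 and 0.25, 0.02 and -0.21. Mitochondrial ribosomal protein genes followed another order, with median shifts of -0.05, 0.18 and -0.15 over 77 genes. For 182 other protein-coding genes shorter than 1 kb of exon the shifts were -0.07, 0.12 and -0.04; many members have a longer exon length than these genes, and the part of length was not tested. The 16 other TOP messages, many of them for translation factors, include the non-coding Gas5. They had median shifts of 0.20, 0.10 and -0.27, with 11 lowest in tumour 3. Eef2, the elongation factor that moves the ribosome along, was at 7387, 5722 and 4396 CPM.

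**Figure D2:**
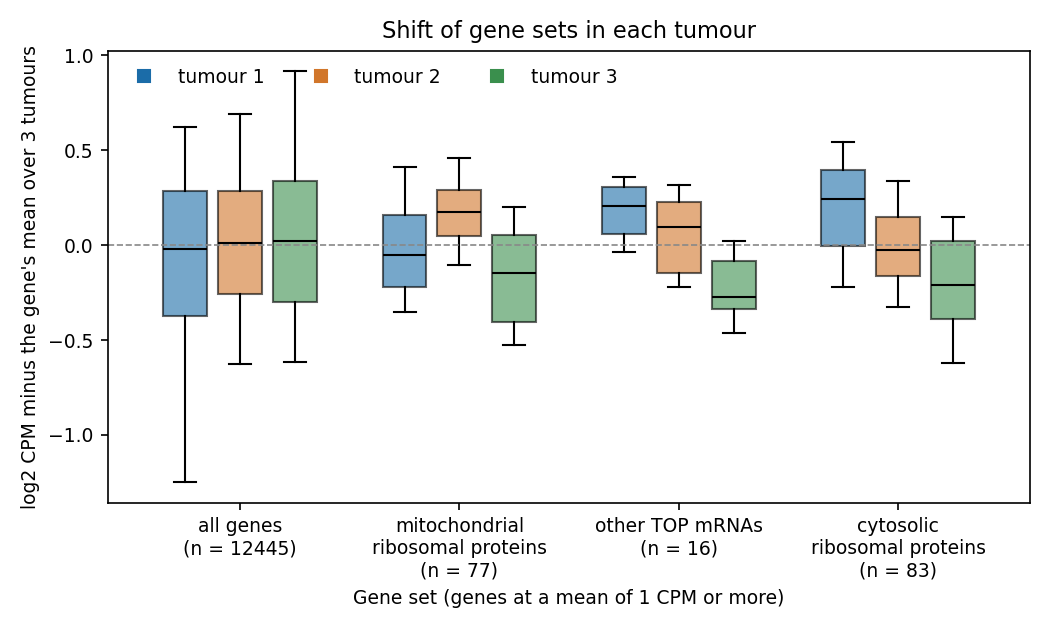
Shift of each gene set in each tumour (vertical, log2 CPM minus the gene's mean over the 3 tumours); boxes span the 25th to 75th percentile, the line is the median and whiskers run from the 10th to the 90th percentile of genes. The median cytosolic ribosomal protein gene is at 0.24 in tumour 1 and -0.21 in tumour 3, while the median of all genes stays between -0.02 and 0.02.

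Several other readings moved with the tumours. The summed CPM of 8 dissociation and stress genes (Fos and Jun among them) was 2051, 3437 and 5141, with 3 of them highest in tumour 2 and 5 in tumour 3. The sum of 6 proliferation genes was 2427, 1289 and 2731, with none highest in tumour 2. The sum of 8 macrophage markers was 36.0, 406 and 180, with 7 highest in tumour 2, of 6 neutrophil markers 0.199, 16.4 and 40.5, and of 5 erythroid markers 8.62, 19.9 and 10.6. The T cell markers, summed above, were lowest in tumour 1 and highest in tumour 3, with Cd8a at 0.663 CPM in tumour 1 and 238 CPM in tumour 3. The part of these in the shift of the members was not tested.

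Gene by gene, most members lay within 2-fold across the tumours. The median SD of log2 CPM was 0.31 over the 83 members and 0.44 over all genes. The highest tumour exceeded the lowest by more than 2-fold, on the scale with the prior count, in 18 of the 83 members (21.7%), beside a background of 41.3% of all genes. This was not particular to the members. The median SD was 0.31 over 77 mitochondrial ribosomal protein genes (15.6% past 2-fold) and 0.30 over the 16 other TOP messages (0%). Over the 182 short genes it was 0.50 (46.7%). The members were also more abundant than all genes, with a median of gene means of 88.3 against 30.3 CPM. Among the steadiest members were Rps27, Rpl30, Rpl10 and Rpl36al, with an SD of 0.11 to 0.12. Rpl30, a large subunit protein, was at 135, 145 and 125 CPM, and Rpl10, an X-linked gene whose product joins the large subunit late, at 63.4, 64.0 and 55.7 CPM. With only the other tumours compared, 8 members passed 2-fold without tumour 1, 10 without tumour 2 and 7 without tumour 3. Comparing fewer tumours leaves less room for a wide ratio, so lower counts are built into this comparison. The share of all genes past 2-fold is not given for these pairs of tumours.

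Members of both subunits were among those past 2-fold at high levels. Rps14, which lies close to the mRNA on the platform of the small subunit, was at 1272, 536 and 493 CPM, high in tumour 1 alone. Rps26, which touches the mRNA at the exit of the channel, was at 1317, 1288 and 541 CPM, low in tumour 3 alone. Rps15, near the decoding site, was at 1433, 959 and 676 CPM, highest in tumour 1 and lowest in tumour 3. Rpl41, the smallest ribosomal protein and a bridge between the subunits, followed the same order at 755, 511 and 346 CPM. Rpl10a and Rpl7l1 were each high in tumour 2: Rpl10a was at 140, 266 and 97.8 CPM, and Rpl7l1 had a like order. At lower levels Rps13 (40.1, 57.1 and 24.6 CPM), Rps6, Rps28 and Rps19bp1 also passed 2-fold with their highest value in tumour 2. Rpl10a had 0.501% of coding windows unique, and Rps14 48.3%.

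Rpl17, at the exit tunnel, was at 51.5, 25.5 and 17.4 CPM, and Rps12, in the beak of the small subunit, at 60.9, 43.8 and 21.1 CPM. Both were highest in tumour 1 and lowest in tumour 3, and neither had a unique coding window. Rps19bp1, all of whose coding windows were unique, was at 30.0, 48.5 and 18.9 CPM. It was lowest in tumour 3, as was the median core gene, but highest in tumour 2.

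**Figure D3:**
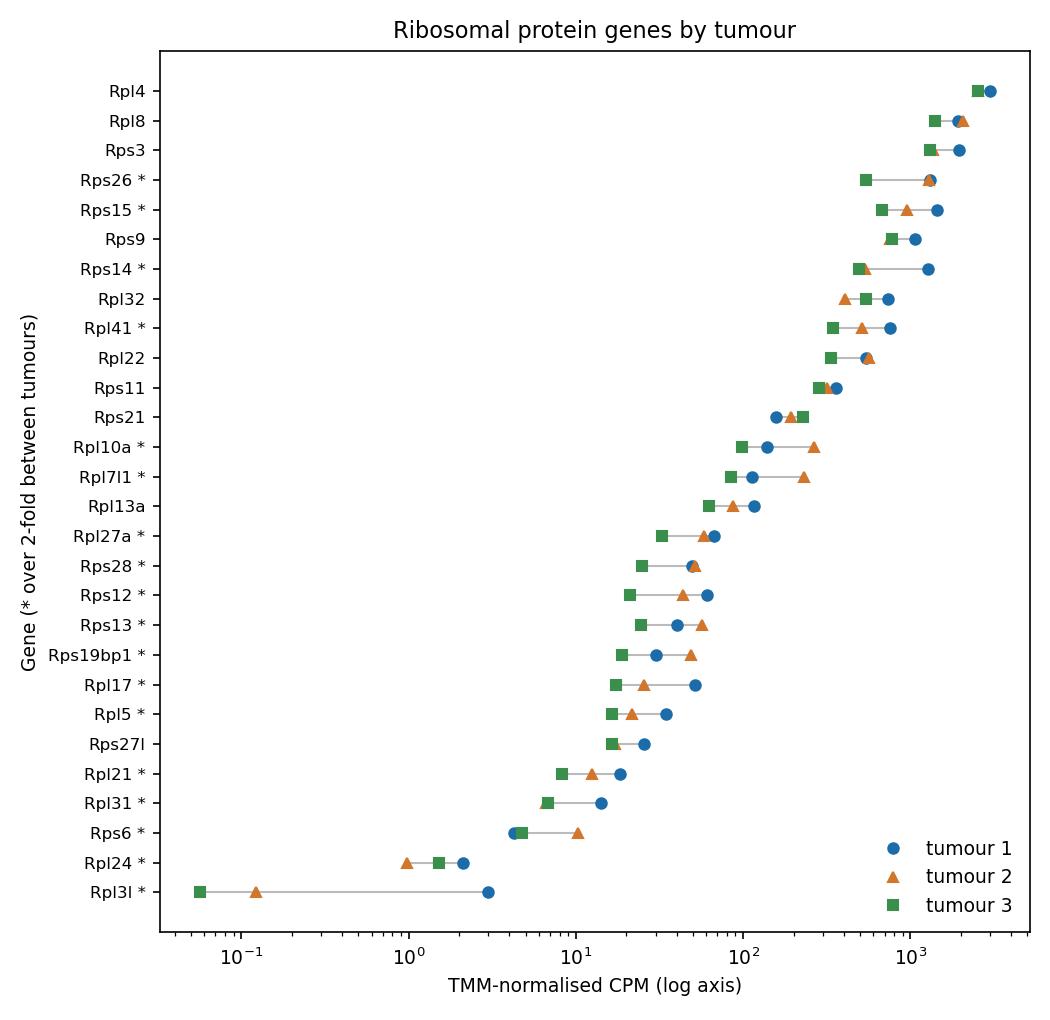
TMM-normalised CPM (horizontal, log axis) in each tumour for the members past 2-fold between tumours (asterisk) or with at least 50% of coding windows unique, 1 of which is left off; each row is 1 gene and the grey line joins its lowest and highest tumour. Rps14 is high in tumour 1 alone (1272 CPM) and Rps26 low in tumour 3 alone (541 CPM), while Rpl4 stays between 2530 and 3000 CPM.

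Members that differed most between tumours shared chromosomes in part, so each was set beside the other genes of its chromosome. Rps14 and Rpl17 both lie on chromosome 18, where the other 301 genes had median shifts of 0.59, -0.13 and -0.43. Rps26, Rps15, Rps12 and Rpl41 lie on chromosome 10, where 609 other genes had median shifts of 0.27, 0.20 and -0.48. On chromosomes 2 and 11 the order was the reverse, with medians of -0.38, 0.13 and 0.27 over 933 genes and -0.38, 0.10 and 0.25 over 1020 genes. The members there followed it in part: the 4 on chromosome 2 had a median shift of -0.25 in tumour 1 and 0.24 in tumour 3, and the 7 on chromosome 11 had -0.22, 0.21 and 0.09, away from the other genes in tumour 3. On chromosome 2, Rps21, with 54.5% of windows unique, was at 157, 194 and 229 CPM. The 4 X-linked members (Rpl10, Rpl36a, Rpl39 and Rps4x) had median shifts of 0.15, -0.07 and -0.06.

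Over the 83 members the shift of a gene and the median shift of the other genes on its chromosome had a Pearson correlation of 0.57, 0.55 and 0.76 in tumours 1, 2 and 3 (Spearman 0.64, 0.65 and 0.81); members of 1 chromosome share the same median, so the points are not independent. With the chromosome median subtracted, 4 members remained past 2-fold (Rpl10a, Rpl31, Rpl3l and Rpl7l1, all among the 18), beside 35.1% of 12414 genes. The ratio of highest to lowest tumour was 2.58 for Rps14 as measured and 1.43 after subtraction, and 2.43 and 1.49 for Rps26. The median SD of members became 0.25, and that of all genes 0.36. The median shift of members was 0.22, -0.03 and -0.10 after subtraction, close to the measured value in tumours 1 and 2 and smaller than the measured -0.21 in tumour 3. Copy number of chromosomes was not measured, and its part in these values was not tested.

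**Figure D4:**
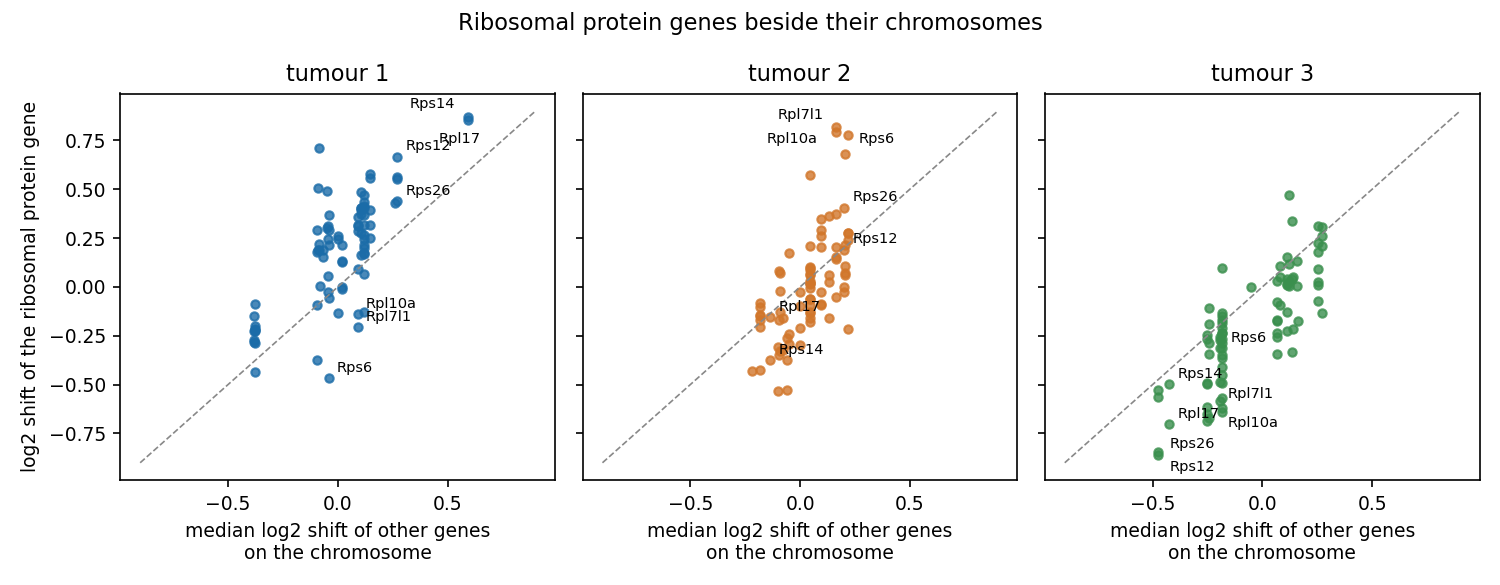
Log2 shift of each ribosomal protein gene (vertical) against the median log2 shift of the other genes on its chromosome (horizontal) in each tumour, for 82 genes, Rpl3l being left off for its range; the dashed line marks equal shifts. Rps14 and Rpl17 lie at the right of the plot for tumour 1 and Rps26 and Rps12 at the lower left of the plot for tumour 3, and in tumour 1 most genes lie above the line.

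By role in the ribosome, the groups shared the order of tumours to different degrees. Of 9 small subunit proteins along the mRNA channel and at the decoding site, all 9 were lowest in tumour 3 and 7 highest in tumour 1, and 4 passed 2-fold (Rps14, Rps15, Rps26 and Rps28). These 4 are 44.4% of the group, near the 41.3% of all genes past 2-fold, while 33% of all genes were lowest in tumour 3. The 9 genes had median shifts of 0.37, -0.02 and -0.34. Rps14 lies on chromosome 18, Rps15 and Rps26 on 10 and Rps2 and Rps28 on 17, where the other genes were also lowest in tumour 3. With the chromosome median subtracted, none of the 4 stayed past 2-fold, and Rps2, Rps3, Rps14 and Rps15 were lowest in tumour 2. None of the 4 stalk genes passed 2-fold. Rplp0, the base of the stalk, was at 1843, 1283 and 1162 CPM, Rplp1 at 1029, 687 and 705 CPM and Rplp2 at 558, 386 and 303 CPM. These 3 were highest in tumour 1, but Rpl12, which also binds the stalk base, was highest in tumour 2, with 802, 1305 and 1006 counts. Of 9 exit tunnel proteins 2 passed 2-fold (Rpl17 and Rpl31), and 3 were highest in each tumour, with median shifts of -0.02, -0.08 and 0.03. Among them, Rpl19, Rpl23a and Rpl26 lie on chromosome 11 and Rpl35 on chromosome 2, where the other genes were lowest in tumour 1. The part of the chromosome in these differences between roles was not tested.

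Rpl5 and Rpl11 form a particle with 5S RNA that binds Mdm2, the ubiquitin ligase of p53, when ribosome assembly is disturbed; floxed p53 alleles are part of this model. Rpl5 was at 34.5, 21.6 and 16.5 CPM and Rpl11 at 25.6, 25.3 and 14.0 CPM, both lowest in tumour 3. Rpl23, another Mdm2 binder, was highest in tumour 3 as measured, at 154, 154 and 186 CPM. It lies on chromosome 11, where the other genes had median shifts of -0.38, 0.10 and 0.25. With that median subtracted, the shifts of Rpl23 were 0.29, -0.19 and -0.07. Rpl23 was then highest in tumour 1, as were Rpl5 (0.43) and Rpl11 (0.33) less their own chromosome medians. The part of the chromosome in this difference was not tested. Neither Rpl5 nor Rpl11 had a unique coding window. Mdm2 itself was at 95.5, 163 and 77.4 CPM.

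Of 4 ribosomal protein genes known to be mutated or lost in lymphoid cancers (Rpl5, Rpl10, Rpl22 and Rps15), all were lowest in tumour 3 and 2 passed 2-fold, with median shifts of 0.39, 0.02 and -0.49. With 4 genes, 2 past 2-fold is near the 41.3% of all genes. Lowest in tumour 3 were 46 of the 83 members and 33% of all genes, so the list follows the order of the family. Of 18 genes mutated in Diamond-Blackfan anaemia, a failure of red cell production, 3 passed 2-fold (Rpl5, Rps26 and Rps28), and 11 were highest in tumour 1. The 3 are 16.7% of the list, beside 21.7% of members and 41.3% of all genes. Highest in tumour 1 were 53 of the 83 members and 33.6% of all genes. Rps19, the gene most often mutated there, was at 202, 183 and 134 CPM. Rps27a, made as a fusion with ubiquitin, was at 16.4, 23.4 and 18.2 CPM.

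The regulators of these messages had another order than the messages. Of 12 genes of the mTOR, Larp1, Myc and p53 systems, 8 were highest in tumour 2, beside 31.1% of all genes. Past 2-fold were 3 (Mtor, Mdm2 and Eif4ebp1), or 25% beside 41.3% of all genes. Mtor was at 124, 221 and 93.4 CPM, and Myc at 712, 995 and 646 CPM. Larp1, which binds the TOP motif, was at 465, 775 and 713 CPM. Eif4ebp1, a translation repressor that mTOR inactivates, was at 35.5, 39.2 and 3.04 CPM, low in tumour 3 alone. Of 6 dedicated chaperones of ribosomal proteins, 5 were highest in tumour 2 and none passed 2-fold; Ltv1, an assembly factor of the small subunit, was at 132, 133 and 69.8 CPM.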

How the data were processed

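Oligo-dT-enriched RNA was read as 50 nt single ends, per the labels. The deposited tables hold unnormalised counts of reads for each gene. Per the submitters' processing notes, the authors used FastQC, STAR 2.5.2b, featureCounts 1.6.0 and the build mm10. Which annotation release they counted on, with which strand setting, and how reads with several matches were treated is not given in the sources used here. Of the gene identifiers, 37536 matched GENCODE M21 without their version, all 87 members included. It supplied coordinates, exon lengths and transcripts, with 1 complete transcript per gene taken by APPRIS tag, support level and coding length.

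CPM used TMM factors from edgeR 4.0.16 (R 4.3.3), and DESeq2 1.42.0 size factors were an alternative. Log2 CPM used a prior count of 2, and members from a mean of 1 CPM entered shifts and counts. The remaining work was done in Python 3.11.15 with pandas 2.3.3, NumPy 2.4.6, matplotlib 3.10.9 and SciPy 1.17.1. The steps were tested on simulated counts. No test was run, as there is 1 group, and the tumour numbers are only names. The members and lists were chosen with earlier results of these data known. Named were the 5 members of highest and lowest mean CPM and of largest and smallest SD, every paralog with a count, Rps19bp1 and examples from each list; Rps9, Rps21, Rpl32, Rpl37, Rps10, Rps16, Rps2, Rpl26, Rpl13a and Rpl41 were chosen later, with values in view. A few genes under this rule are left out of the text and not reported here. The genome sequence was not used here.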

Additional observations from a re-analysis of the deposited data

How the results depend on the processing

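Of 139 alternative values, 125 stayed near the main value and 14 moved. The members past 2-fold were 18, and 5 among members with at least 50% of coding windows unique, 4 with chromosome medians subtracted, and 7 to 10 with 1 tumour left out (fewer members or fewer tumours compared). The median level of members was 6.42 (log2 CPM) and 8.94 with at least 50% of windows unique. Large minus small subunit per kb was 0.03, and -0.35 by coding length, -0.95 per unique window, 0.59 with at least 90% and 0.48 with at least 50% of windows unique. The range per length was 6.34, and 5.75 per unique window, 1.595 and 2.99 under these filters. Paralog against parent was -0.68, and -3.75 per unique window. The cause was not tested. Per-length levels thus depend on the length used, and the order of the subunits is not settled by them. Window counts came from annotated transcripts; the planned searches of the genome were not run. With total counts 13 members passed 2-fold. No paired analysis was possible because the labels give 1 group. With 3 libraries, Rpl24, Rpl23a and Rps29 rest on fewer than 100 counts in each tumour.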
